A study of Rattus norvegicus with 8 samples.

Results

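The Hox genes, transcription factor genes that record position along the body axis, were examined in rat spinal cord cultures kept with or without fibroblast growth factor 9 (FGF9). Members were the array features with a single gene symbol that reads Hox, a cluster letter from a to d and a number from 1 to 13, with the feature of highest mean taken for each gene. This gave 22 genes of the 14506 with such a feature, and each of the 22 had 1 feature. The RefSeq gene table lists 39 rat Hox genes, and the other 17 are not analysed here. The members covered 5 of 11 genes of the Hoxa cluster, 7 of 10 of Hoxb, 4 of 9 of Hoxc and 6 of 9 of Hoxd.

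Total RNA came from myelinating cultures of Sprague-Dawley rats, which per the labels' protocols were made by dissociating spinal cords of embryos after the meninges had been removed, so that neurons, oligodendrocytes and astrocytes grow together and axons become wrapped in myelin. There were 4 groups of 2 arrays each: untreated cultures collected at 24 h, cultures given human FGF9 at 100 ng/ml and collected at 24 h, untreated cultures collected at 10 days, and cultures given the same dose and collected at 10 days. The arrays were Affymetrix Rat Gene 1.0 ST, 8 in all. By title all samples are myelinating cultures. The source field of the labels instead names astrocytes grown from neurospheres, which the protocol text describes as another culture, of striatal origin. No label says that 2 arrays of a group came from separate preparations, so the p-values measure only the spread between these arrays, which may be technical.

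In mammals Hox genes lie in 4 clusters, and genes that share a number in different clusters are paralogues. Within a cluster, low-numbered genes are switched on in the hindbrain and neck, middle numbers at brachial and thoracic levels, and high numbers at lumbar, sacral and tail levels, whereas the forebrain uses none of them. In the embryo, retinoic acid, FGF and Gdf11 signals and the Cdx factors set this code, Polycomb and trithorax proteins hold it, and in the spinal cord it directs which motor neurons and interneurons form at each level.

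The values are on a log2 scale, where 1 unit is a doubling. The medians of the arrays lay between 6.62 and 6.73. Same-numbered control and FGF9 arrays carry the same name prefix in the labels, which do not say what it marks: CL1 for replicate 1 and CL2 for replicate 2 at 24 h, and CL2 for replicate 1 and AA1 for replicate 2 at 10 days. They are called pairs here. The AA1 arrays stood apart from the rest: they correlated at 0.897 to 0.939 with the others, which correlated with each other at 0.962 to 0.989, and the mean level of 11 fibroblast, meningeal and pericyte markers was 6.32 and 6.65 on them against 8.43 to 9.33 elsewhere. Mean levels over the marker lists ran from 9.45 to 11.13 for 19 neuronal genes, from 10.49 to 11.68 for 12 astrocyte genes and from 8.47 to 11.10 for 13 myelin genes, all above the array medians. In such bulk samples, fewer cells of a type and less RNA per cell cannot be told apart.

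The Hox genes above the array median on every array carried numbers from 2 to 10 and lay mostly in the Hoxa and Hoxb clusters. They were Hoxa2, Hoxa5, Hoxa7, Hoxb3, Hoxb4, Hoxb7, Hoxb8, Hoxb9 and Hoxd10, 9 of the 22 members, with Hoxd10 from 6 Hoxd members and 0 of 4 Hoxc members. Of all 14506 genes, 52.3% were above the median on all arrays. The other members included 5 that stayed under the array median on every array and 8 that were above it on some. Levels of different features are set against the array distribution only, since each feature has its own probe response.

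**Figure D1:**
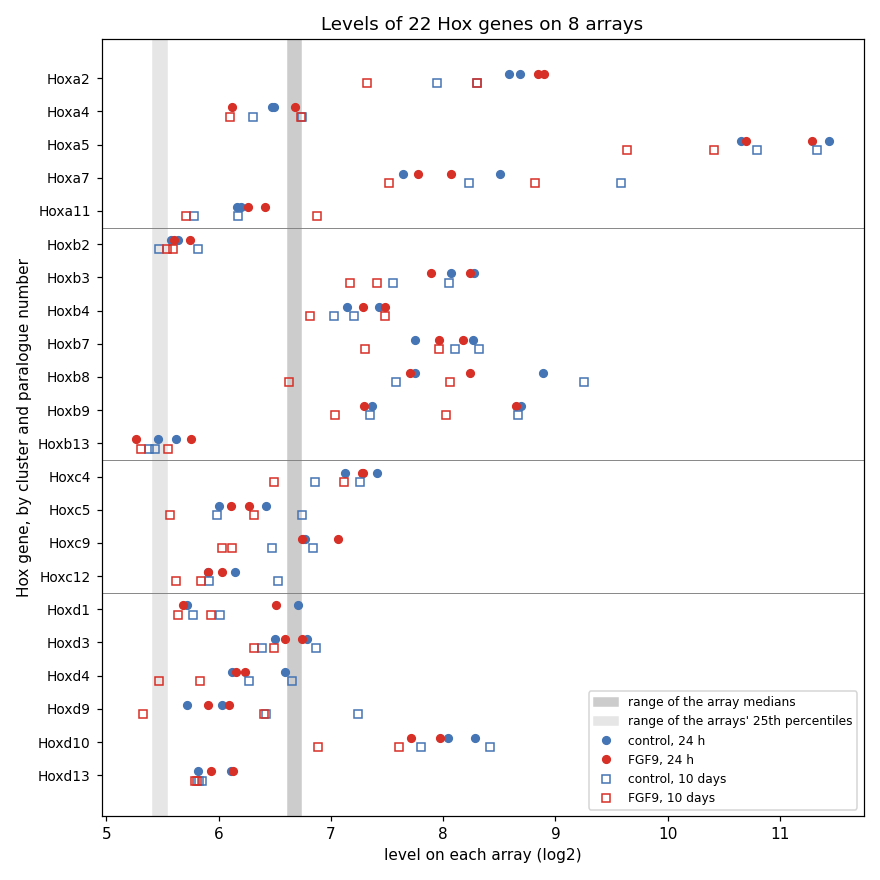
Level of each of the 22 Hox genes on each of the 8 arrays (horizontal axis, log2), ordered by cluster and paralogue number; filled circles are 24 h, open squares 10 days, blue control and red FGF9, and the bands give the range of the array medians and of the arrays' 25th percentiles. Hoxa5 lay above 9.6 on every array, while Hoxb13 and Hoxb2 lay under 5.9.

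Among the low numbers, Hoxa2, a regulator of hindbrain segment and neural crest identity, had 8.68 and 8.59 in the 24 h controls, 8.89 and 8.84 with FGF9 at 24 h, 8.31 and 7.94 in the 10-day controls, and 8.30 and 7.33 with FGF9 at 10 days. Both 24 h FGF9 arrays were above both 24 h controls, and the 10-day groups overlapped. Hoxb3, expressed up to the caudal hindbrain, had 8.07 and 8.28 in the 24 h controls, 8.24 and 7.89 with FGF9 at 24 h, 7.55 and 8.05 in the 10-day controls, and 7.41 and 7.17 with FGF9 at 10 days. Its 10-day FGF9 arrays were the lowest of the 8. Hoxb4 had 7.14 and 7.43, 7.28 and 7.48, 7.03 and 7.20, and 7.48 and 6.82 in the same order of groups. Its FGF9 arrays at 10 days lay on either side of the controls. Hoxd1, the member of paralogue number 1 measured here, had 6.71 and 5.72 in the 24 h controls, 6.51 and 5.68 with FGF9 at 24 h, 6.01 and 5.77 in the 10-day controls, and 5.93 and 5.63 with FGF9 at 10 days. Its replicate 1 arrays at 24 h were the highest.

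The middle numbers mark brachial and thoracic cord. Hoxa5, which patterns the cervical and brachial region including the phrenic motor column, had 10.65 and 11.44 in the 24 h controls, 10.70 and 11.28 with FGF9 at 24 h, 10.80 and 11.33 in the 10-day controls, and 9.64 and 10.41 with FGF9 at 10 days. It was the member above the 75th percentile of every array, and both 10-day FGF9 arrays were under all 6 others. Hoxa7 had 7.64 and 8.50, 7.78 and 8.07, 8.23 and 9.58, and 7.51 and 8.82 in the same order. Its second 10-day replicate, on the AA1 arrays, was above the first in both conditions, so that the 10-day groups overlapped. Hoxb8, expressed in thoracic and lumbar cord and needed for normal dorsal horn circuits, had 7.75 and 8.89 in the 24 h controls, 7.70 and 8.24 with FGF9 at 24 h, 7.58 and 9.25 in the 10-day controls, and 6.63 and 8.06 with FGF9 at 10 days. Replicate 2 was above replicate 1 in each group, and the 10-day groups overlapped although each FGF9 array was under its own control. Hoxb9 had 7.36 and 8.69, 7.30 and 8.64, 7.35 and 8.67, and 7.04 and 8.02 in the same order, with the same split between replicates.

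High numbers mark lumbar, sacral and tail levels. Hoxd10, which with its paralogues specifies lumbar motor neurons, had 8.04 and 8.29 in the 24 h controls, 7.97 and 7.72 with FGF9 at 24 h, 7.80 and 8.41 in the 10-day controls, and 6.89 and 7.61 with FGF9 at 10 days. At both times the FGF9 arrays were under both controls. Hoxa11 had 6.20 and 6.16, 6.41 and 6.26, 6.17 and 5.78, and 6.88 and 5.71 in the same order of groups. Its 10-day FGF9 arrays held its highest and its lowest value. Hoxc12 had 5.90 and 6.14, 5.90 and 6.03, 5.91 and 6.53, and 5.62 and 5.85. Hoxd13, a gene of the tail and limb end, had 6.11 and 5.82, 6.12 and 5.94, 5.85 and 5.83, and 5.81 and 5.78. Apart from Hoxd10, the members numbered 10 to 13 stayed under 6.9 on every array.

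At 24 h of FGF9 the Hox genes held no common direction. The median difference from control over the 22 genes was -0.03, with 0.04 in pair 1 and -0.07 in pair 2, against -0.0015 over all genes. There were 5 members lower in both pairs, where 32.9% of all genes were, and 6 higher in both, where 31.8% of all genes were, and 11 moved in opposite directions. Both FGF9 arrays lay under both controls for 1 member, Hoxd10, against 14.5% of all genes, and above them for 2, Hoxa2 and Hoxa11, against 17.5%. No Hox gene passed limma's moderated test at an adjusted p of 0.05, and neither did any other gene, a background of 0%, with or without the name prefix as a block. At an unadjusted p under 0.05 the counts at 24 h were 0 Hox genes and 280 genes in all without the block.

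The largest 24 h differences with the same sign in both pairs were Hoxb8 and Hoxd10 downward and Hoxa2 upward. Hoxb8 differed by -0.05 and -0.65 in the pairs, a mean of -0.35 ± 0.74 (SE, n = 2 arrays a group). Hoxd10 differed by -0.07 and -0.57, a mean of -0.32 ± 0.33, so that for both genes nearly all of the difference came from pair 2. Hoxa2 differed by 0.21 and 0.25, a mean of 0.23 ± 0.34. The further members with 1 sign in both pairs were small: Hoxd1 at -0.12, Hoxb9 at -0.06 and Hoxc12 at -0.05 below control, and Hoxa11 at 0.15, Hoxd9 at 0.12, Hoxb4 at 0.10, Hoxd13 at 0.07 and Hoxb2 at 0.06 above it.

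By 10 days of FGF9 most Hox genes were below control. Their median difference was -0.45, with -0.29 in pair 1 and -0.67 in pair 2, against 0.02 over all genes. The mean was lower for 19 of the 22 members. Within pairs 17 members were lower in both, against 30.0% of all genes, and 0 were higher in both, against 33.2%. In pair 1 there were 18 lower, where 48.3% of all genes were, and in pair 2 there were 21, where 48.5% were. The 5 members with opposite signs were Hoxa11, Hoxb2, Hoxb4, Hoxb13 and Hoxc4. Both FGF9 arrays lay under both controls for 9 members, against 11.3% of all genes, and 5 members (Hoxa5, Hoxa7, Hoxb8, Hoxd9 and Hoxd10) were lower by more than 0.5 in both pairs, against 5.14%.

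**Figure D2:**
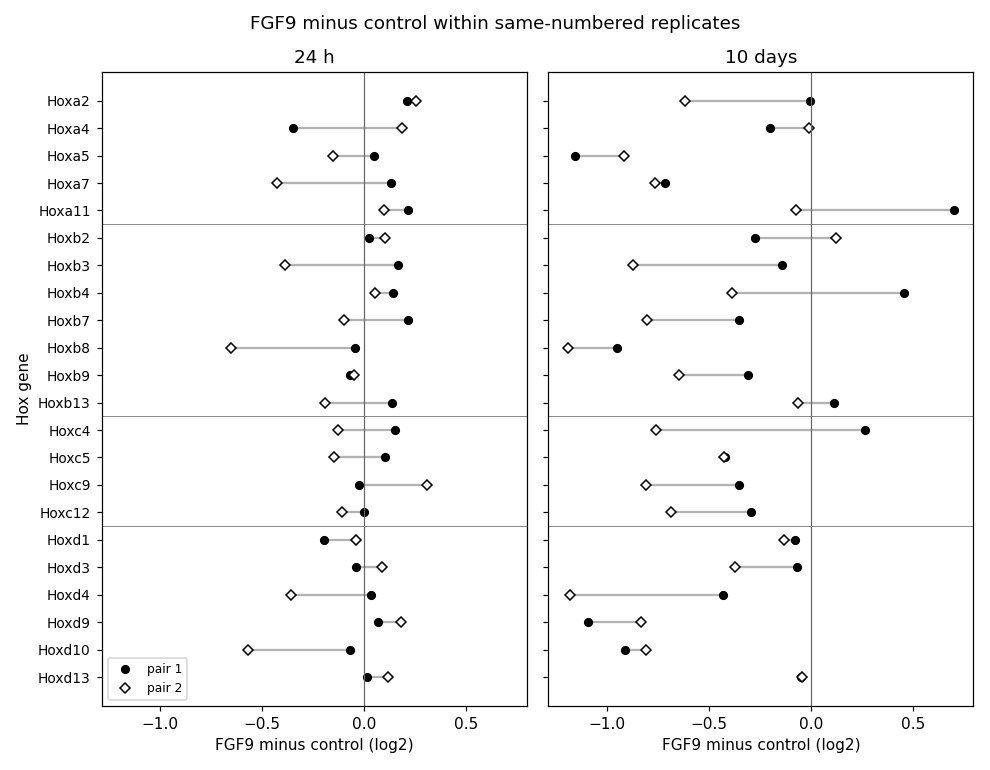
FGF9 minus control on the log2 scale (horizontal axis) for each Hox gene within pair 1 (filled circles) and pair 2 (open diamonds), at 24 h on the left and at 10 days on the right. At 24 h the points lie on both sides of 0, and at 10 days 17 genes have both points below it.

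The test of single genes at 10 days depended on whether the pairs were used. In the fit with 1 mean per group, no Hox gene passed and 0% of all genes did, with a smallest Hox adjusted p of 0.724 (limma, Benjamini-Hochberg over 14506 genes), while 4 Hox genes and 816 genes in all had an unadjusted p under 0.05. With the array name prefix as a block, limma called 4 Hox genes, all lower, where 6.43% of all genes passed in either direction and 3.31% passed as lower. They were Hoxa5, Hoxb8, Hoxd9 and Hoxd10. All 4 calls were lost with the same prefix as a random block (smallest Hox adjusted p 0.0878, limma) and with the replicate number as a block over both times (0.190). Few genes of any kind passed in those fits: 151 of 14506 with the random block, 24 of them lower, and 1 with the replicate number. With the fixed block, leaving out a pair leaves 1 array in a group, so those fits cannot say whether the calls hold. The median Hox difference was -0.29 without the AA1 pair and -0.67 without the CL2 pair at 10 days.

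Hoxb8 was lower by 0.95 in pair 1 and by 1.19 in pair 2, a mean of -1.07 or 52.5% below control on the linear scale, with an SE of 0.74 without the block and 0.19 with it (limma, adjusted p 1.00 and 0.0329 respectively). Leaving out 1 array at a time without the block moved this mean between -1.91 and -0.24. Hoxa5 was lower by 1.16 and 0.92, a mean of -1.04 or 51.3% below control, with an SE of 0.42 without the block and 0.14 with it (limma adjusted p 0.873 and 0.0220). With the random block limma's adjusted p was 0.106 for Hoxa5 and 0.0878 for Hoxd9. Hoxd9, a regulator of the thoracic to lumbar cord and hindlimb motor neurons, had 6.03 and 5.72 in the 24 h controls, 6.09 and 5.90 with FGF9 at 24 h, 6.42 and 7.24 in the 10-day controls, and 5.32 and 6.41 with FGF9 at 10 days. The 10-day controls were its highest arrays, and the upper FGF9 array at 10 days was level with the lower control. Its differences were -1.09 and -0.83, a mean of -0.96 with an SE of 0.43 without the block and 0.14 with it (limma adjusted p 0.949 and 0.0248).

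Hoxd10 was lower by 0.91 and 0.81, a mean of -0.86 or 44.9% below control, with an SE of 0.33 without the block and 0.17 with it (limma adjusted p 0.842 and 0.0419). Hoxd4, active from the caudal hindbrain backward, had 6.12 and 6.59 in the 24 h controls, 6.15 and 6.23 with FGF9 at 24 h, 6.27 and 6.65 in the 10-day controls, and 5.83 and 5.47 with FGF9 at 10 days. Both 10-day FGF9 arrays were under all 6 others. Its mean difference of -0.81 missed the threshold in both fits (SE 0.26 and 0.22, limma adjusted p 0.724 and 0.0846). Hoxa7 differed by almost the same amount in both pairs, -0.71 and -0.76, and also missed it with the block (adjusted p 0.0620 with limma).

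**Figure D3:**
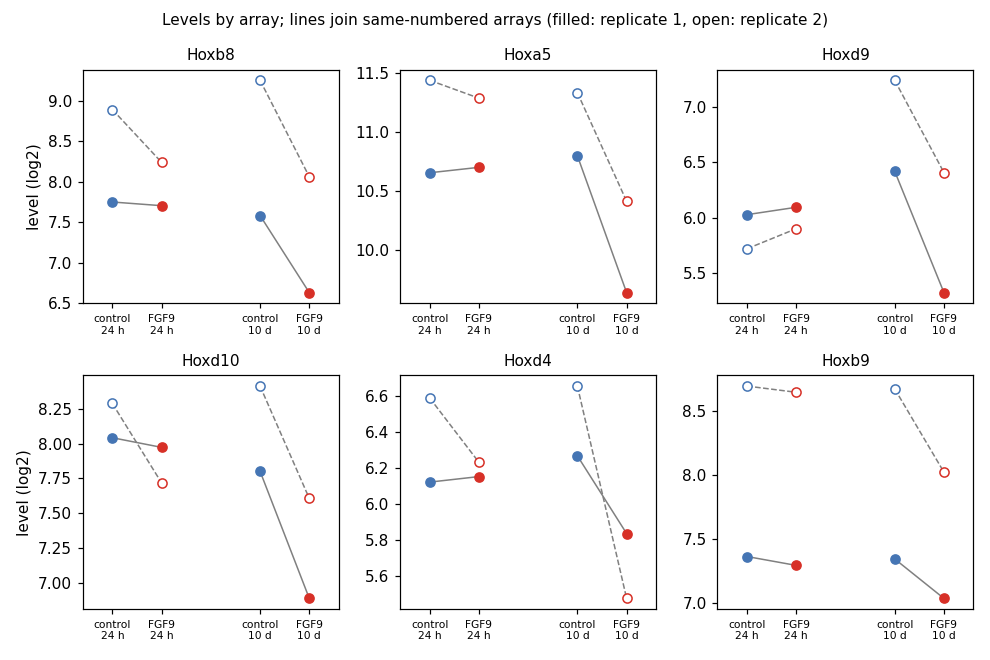
Level (vertical axis, log2, each panel with its own scale) of 6 Hox genes in the 4 groups; lines join the same-numbered control and FGF9 arrays, filled for replicate 1 and open for replicate 2, blue for control and red for FGF9. Hoxb8, Hoxa5, Hoxd9, Hoxd10 and Hoxd4 are the 5 largest 10-day falls that held in both pairs. That their 10-day lines fall follows from this choice. The 10-day lines of Hoxb9 fall too. The replicate 2 arrays of Hoxb8, Hoxa5 and Hoxb9 lie above the replicate 1 arrays in every group.

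Sorted by paralogue number, the 10-day difference was widest in the middle of the clusters. All 8 members numbered 5 to 9 were lower in both pairs, with a median of -0.66 (-0.57 in pair 1 and -0.81 in pair 2) and means from -1.07 to -0.42. Among the 9 members numbered 1 to 4 there were 6 lower in both pairs, with a median of -0.22 and means from -0.81 to 0.03. Among the 5 numbered 10 to 13 there were 3, Hoxc12, Hoxd10 and Hoxd13, with a median of -0.05 and means from -0.86 to 0.31. By cluster the medians lay closer together, at -0.31 for Hoxa, -0.48 for Hoxb, -0.46 for Hoxc and -0.51 for Hoxd.

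**Figure D4:**
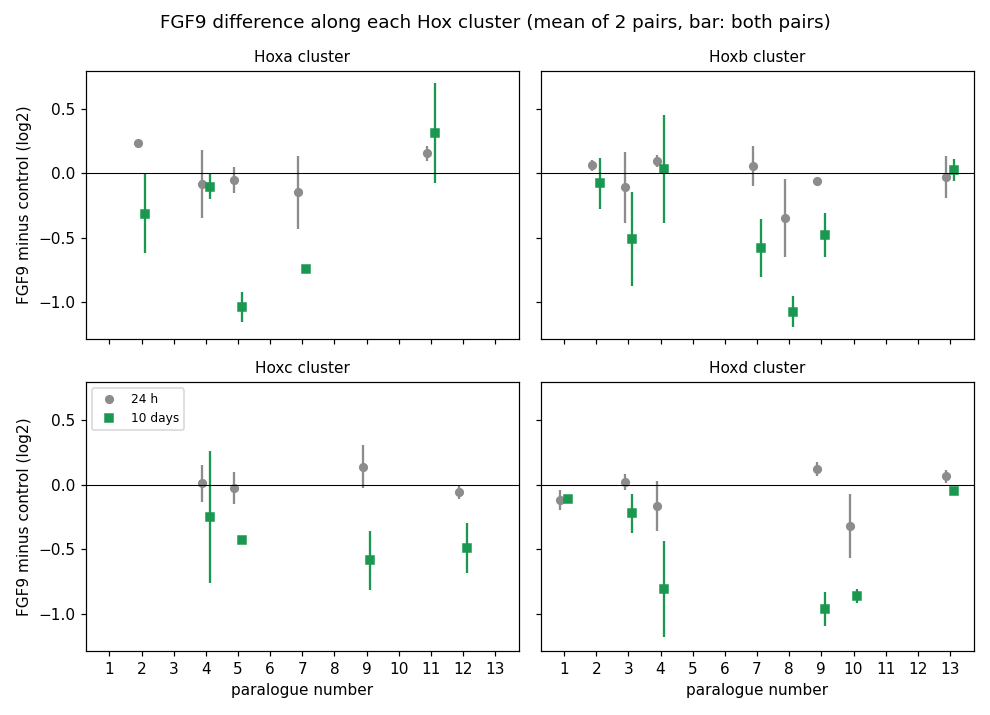
FGF9 minus control (vertical axis, log2) against paralogue number (horizontal axis) for each Hox cluster, as the mean of 2 pairs with a bar reaching both pairs, grey circles at 24 h and green squares at 10 days. The squares numbered 5 to 9 all lie below 0, with both pairs below it.

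The level of a gene went along with these classes. The 9 members above the array median on all arrays had a 10-day median of -0.58, and the other 13 had -0.22. Across the 22 genes the mean of the 24 h controls correlated with the 10-day difference at r = -0.545, a description over genes that share the 8 arrays. The part of the level in the contrast between number classes was not tested. Hoxd9 and Hoxd4, with means of 6.14 and 6.16 over all arrays, were among the 5 largest differences. In the 10-day controls Hoxd9 was at 6.42 and 7.24 and Hoxd4 at 6.27 and 6.65. Hoxb4, with a mean of 7.23, differed by 0.46 and -0.39 in the pairs.

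In the Hoxd cluster, which runs on chromosome 3 from Hoxd13 to Hoxd1, the largest differences were at neighbouring measured genes. The mean 10-day differences were -0.05 for Hoxd13, -0.86 for Hoxd10, -0.96 for Hoxd9, -0.81 for Hoxd4, -0.22 for Hoxd3 and -0.11 for Hoxd1. The neighbours Hoxd10, Hoxd9 and Hoxd4 thus differed by 0.81 or more while the members at both ends lay between -0.22 and -0.05. Hoxd8, Hoxd11 and Hoxd12 are not analysed here. The 150 bases before the RefSeq start of these 3 genes and of Hoxd1, the end of the cluster that differed little, are shown so that the neighbours can be compared (RefSeq, build GRCr8, plus strand, 5′ to 3′). They lie at chr3:80001797-80001946 for Hoxd10, chr3:80007856-80008005 for Hoxd9, chr3:80021736-80021885 for Hoxd4 and chr3:80072891-80073040 for Hoxd1, and capitals mark matches on either strand to the motifs named after them.
Hoxd10: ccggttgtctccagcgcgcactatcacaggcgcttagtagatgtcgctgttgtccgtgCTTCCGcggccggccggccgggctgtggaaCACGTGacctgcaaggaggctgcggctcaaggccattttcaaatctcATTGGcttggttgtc
Hoxd9: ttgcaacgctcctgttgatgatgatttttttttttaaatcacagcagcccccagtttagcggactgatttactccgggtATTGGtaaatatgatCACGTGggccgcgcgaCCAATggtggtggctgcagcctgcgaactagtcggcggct
Hoxd4: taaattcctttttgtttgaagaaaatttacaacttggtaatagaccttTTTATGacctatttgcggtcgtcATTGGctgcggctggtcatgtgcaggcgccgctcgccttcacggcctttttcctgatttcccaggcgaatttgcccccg
Hoxd1: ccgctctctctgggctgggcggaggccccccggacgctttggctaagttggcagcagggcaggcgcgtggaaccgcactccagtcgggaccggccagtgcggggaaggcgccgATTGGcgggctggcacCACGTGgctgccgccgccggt

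Of the 22 members, 11 had an entry in the RefSeq promoter table, and 250 bases before the start were searched on both strands in all 27457 promoters of that table. The E-box CACGTG, a palindrome that basic helix-loop-helix factors bind, was in 6 of the 11 Hox windows (Hoxa4, Hoxa7, Hoxd1, Hoxd3, Hoxd9 and Hoxd10) and in 5.79% of all. It was searched after the Hox sequences had been read. CCAAT, the box bound by nuclear factor Y, was likewise searched after reading, and was in 6 of 11 (Hoxa2, Hoxa7, Hoxd1, Hoxd4, Hoxd9 and Hoxd10) and in 34.3% of all. Both motifs stood before Hoxd10 and Hoxd9, which were lower at 10 days, and also before Hoxd1, which differed little.

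Motifs of known Hox regulators were in 1 or 2 windows each. TTTATG, a Cdx motif, was in 1 of 11 (Hoxd4) against 11.2% of all promoters. CGGAAG, the core bound by ETS factors such as those downstream of FGF signalling, was in 2 (Hoxd1 and Hoxd10) against 14.7%. TGATNNAT, a motif of Hox and Pbx pairs, was in 1 (Hoxa2) against 7.75%, and TATAAA in 1 (Hoxd13) against 13.1%. The printed windows of Hoxd10, Hoxd9, Hoxd4 and Hoxd1 had 60.7%, 50.7%, 47.3% and 74.0% G and C. A match describes letters only.

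Hox levels also differed between replicates of a group. Replicate 2 was above replicate 1 in all 4 groups for 7 of the 22 members, against 16.4% of all genes, and by more than 0.5 in all 4 for 3, Hoxa5, Hoxb8 and Hoxb9, against 2.74%. Across the 22 members the step from replicate 1 to replicate 2 in the 24 h controls correlated with that in the 10-day controls at r = 0.680, whereas over all genes r was 0.019. The mean level of the 19 neuronal markers split the same way, at 9.96 and 10.89 in the 24 h controls, 9.87 and 10.61 with FGF9 at 24 h, 10.21 and 11.13 in the 10-day controls, and 9.45 and 10.31 with FGF9 at 10 days. The mean of 10 forebrain regulators did so too, at 5.98 and 6.125 in the 24 h controls and 6.074 and 6.189 with FGF9. At 10 days it was 6.087 and 6.724 in the controls and 6.384 and 6.933 with FGF9. The step from replicate 1 to replicate 2 is CL2 minus CL1 at 24 h and AA1 minus CL2 at 10 days. CL2 is thus in both, with opposite sign. The part of the prefix in these steps was not tested.

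Between 24 h and 10 days in untreated cultures, the median Hox difference was -0.02 without the block and -0.13 with it. No Hox gene passed without the block (0% of all genes, limma) or with it (0.00689%). At an unadjusted p under 0.05 (limma) there were 0 Hox genes and 415 genes in all without the block. With the block there were 4 Hox genes and 1990 genes in all. The control steps depended on the fit: without and with the block Hoxd9 was at 0.95 and 0.60, Hoxb9 at -0.02 and -1.27, Hoxb8 at 0.10 and -1.10, and Hoxa5 at 0.02 and -0.65. With FGF9 the median over the same interval was -0.29 without the block and -0.52 with it. Without the block no Hox gene passed (0% of all genes, limma), and 3 Hox genes and 1430 genes in all had an unadjusted p under 0.05. With it 6 Hox genes passed, all lower (Hoxa5, Hoxb8, Hoxb9, Hoxc5, Hoxc9 and Hoxd10), where 11.0% of all genes passed. All 6 also had a negative control step in the fit with the block. The calls were all lost with the prefix as a random block (smallest Hox adjusted p 0.0660, limma) and with the replicate number as a block (0.128). In those fits 209 and 2 of all 14506 genes passed. With the fixed block and without the CL1 pair the median was -0.52. In the fixed block fit the time step averaged over control and FGF9 comes from the CL2 arrays, the prefix found at both times. The CL1 and AA1 pairs enter this comparison only through their FGF9 minus control differences.

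The difference of the FGF9 effects, 10 days minus 24 h, had a Hox median of -0.41. Tested directly, no Hox gene passed without the block (0% of all genes) or with it (0.0483%), and the smallest Hox adjusted p was 0.234 with the block (limma, Hoxd9). At an unadjusted p under 0.05 (limma) there were 0 Hox genes and 276 genes in all without the block. With it there were 5 Hox genes and 1866 genes in all. The absence of calls at 24 h and the 4 calls at 10 days with the block are therefore not shown to differ by this test.

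Neuronal transcripts were lower at 10 days and, by less, already at 24 h. Of 19 neuronal markers 18 were lower in both pairs at 10 days, against 30.0% of all genes, with a median of -0.84 (-0.87 and -0.79 in the pairs). With the fixed block 12 passed as lower, against 3.31% of all genes, while 0 passed without it (limma, 0% of all genes). Of all 14506 genes, 24 passed as lower with the random block and 0 with the replicate number as a block. How many of the 12 are among the 24 is not given here. Calls with the block in the lists that follow are also those of the fixed block alone. Nefm, a neurofilament subunit, was at -1.33, Rbfox3, which encodes the neuronal nuclear antigen NeuN, at -1.14, and Gap43, a growth cone protein, at 0.12. At 24 h the neuronal median was -0.22, and 18 of the 19 were lower in both pairs, against 32.9% of all genes. The part of the neuronal markers in the Hox difference was not tested. The other cell type lists had 10-day medians of 0.04 for 12 astrocyte, 0.13 for 13 myelin, 0.80 for 6 oligodendrocyte precursor, -0.07 for 11 microglial and -0.16 for 11 fibroblast, meningeal and pericyte genes, with 0.04 for 9 Schwann cell and dorsal root ganglion and 0.09 for 9 muscle and cartilage genes. The fibroblast list was at -0.66 in pair 1 and 0.21 in pair 2. Their 24 h medians were -0.54 for astrocyte, -0.59 for myelin, 0.12 for oligodendrocyte precursor and -0.08 for microglial genes. The fibroblast, Schwann cell and muscle lists were at -0.27, -0.03 and -0.20 at 24 h.

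**Figure D5:**
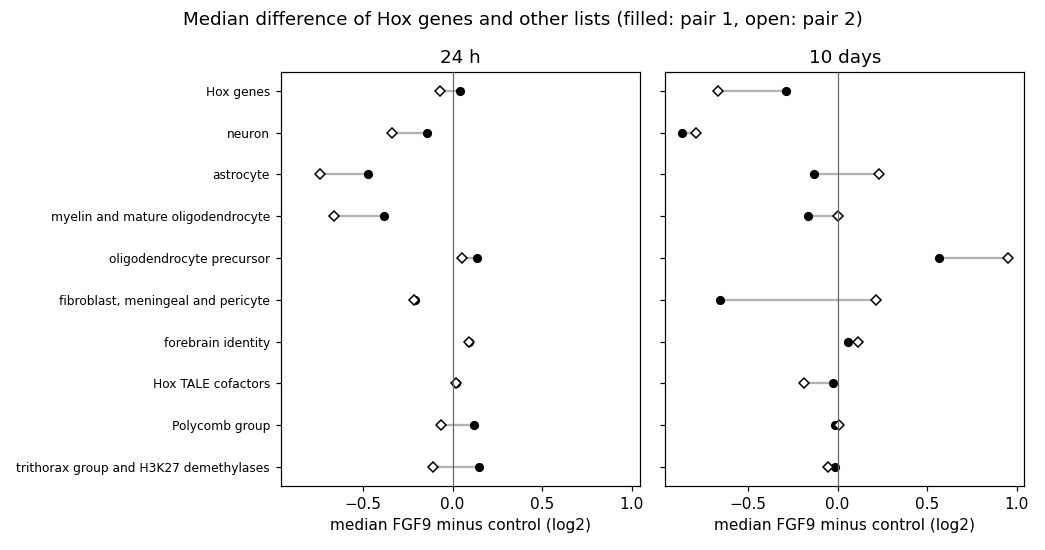
Median FGF9 minus control (horizontal axis, log2) of the 22 Hox genes and of 9 other gene lists in pair 1 (filled circles) and pair 2 (open diamonds), at 24 h on the left and 10 days on the right. At 10 days the Hox medians are -0.29 and -0.67 and the neuron medians -0.87 and -0.79 in pairs 1 and 2, and the oligodendrocyte precursor list is above 0 in both.

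The cofactors that Hox proteins bind DNA with, the TALE homeodomain proteins, differed little from control. Of 9 listed, 7 were measured, with a median of 0.00 at 24 h and -0.15 at 10 days, and 0 passed in either fit. Meis1 was 0.16 and Meis2 -0.24 from control at 10 days, Pbx2 was -0.16 and Pknox1 -0.28, and at 24 h Meis1, Pknox1 and Pbx4 were at 0.25, 0.22 and 0.08. Meis2 had 11.32 and 10.86 on the AA1 arrays and 9.15 to 9.43 on the others.

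Among 14 measured of 19 genes upstream of Hox in the embryo, the medians were -0.04 at 24 h and -0.03 at 10 days. With the block 2 of the 14 passed at 10 days, in opposite directions, where 6.43% of all genes passed (limma). Without the block 0 passed. Rara, the retinoic acid receptor alpha, had 7.77 and 7.10 in the 10-day controls and 8.77 and 8.80 with FGF9. Both FGF9 arrays were above all others, and the mean difference was 1.35 (SE 0.27 without the block, limma adjusted p 0.459, and 0.0237 with it). Crabp1, which binds retinoic acid in the cytoplasm, had 7.57 and 10.71 in the 10-day controls and 6.37 and 9.39 with FGF9, a difference of -1.26 (limma adjusted p 0.0173 with the block and 1.00 otherwise). Rxrg and Cyp26b1 were -0.38 and -0.26 from control at 10 days, and Rxra, Aldh1a3, Cyp26a1 and Rarg were at -0.58, 0.22, -0.22 and 0.20 at 24 h.

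The chromatin regulators that keep Hox genes silent or active had members on both sides of control. For 26 measured of 30 Polycomb group genes the medians were 0.04 and -0.02 at 24 h and 10 days. With the block 1 gene, Phc2, passed at 10 days, as higher, where 6.43% of all genes passed in either direction. It was at 0.75 (limma adjusted p 0.0370), after 0.83 at 24 h. Ezh2, the Polycomb histone methyltransferase, was at 0.77 ± 0.43 at 24 h and 0.08 ± 0.43 at 10 days, and Bmi1 was at -0.01 and -0.17. Mtf2, Pcgf6 and Rnf2 were at -0.41, 0.39 and 0.32 at 10 days, and Eed, Phf1 and Cbx8 at 0.37, -0.28 and -0.33 at 24 h. For 10 of 14 trithorax group and demethylase genes the medians were 0.03 and 0.01, and 0 passed in either fit, with Wdr5 at 0.37 and 0.14 and Ash1l at -0.25 and -0.32 at 24 h and 10 days. Men1 and Dpy30 were at -0.15 and 0.15 at 24 h, and Psip1 and Dpy30 at -0.23 and -0.15 at 10 days.

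Homeobox genes next to or related to the clusters were mostly dim, with mean levels over the 6 measured of 10 between 5.22 and 5.57 on the arrays. Their medians were 0.17 at 24 h and 0.06 at 10 days, and 0 passed in either fit. Evx2, which lies beside Hoxd13, was at 0.45 at 24 h, with Meox2, Gsx2 and Evx1 at 0.25, 0.15 and 0.18. At 10 days Gbx1, Gsx2, Evx1 and Meox1 were at -0.23, 0.21, -0.21 and 0.32. None of the 19 listed non-coding genes of the Hox clusters was measured by a single-symbol feature.

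Of the 13 measured genes of motor neuron types that depend on Hox, the medians were 0.02 at 24 h and -0.01 at 10 days. With the block 2 passed as higher and 1 as lower at 10 days, where 6.43% of all genes passed in either direction. Etv4, an ETS factor of motor pools that FGF signalling also induces, had 6.03 and 5.84 in the 10-day controls and 8.37 and 8.50 with FGF9. The groups were far apart, by 2.50 (SE 0.19 without the block, limma adjusted p 0.0660, and 0.00650 with it). Slc18a3, the vesicular acetylcholine transporter, was at 0.77 (block adjusted p 0.0370 with limma) and Slc5a7, the choline transporter, at -1.08 (0.0487), so that these cholinergic genes moved in opposite directions. Foxp1, the accessory factor for Hox activity in limb motor neurons, had 9.05 and 8.99 in the 10-day controls and 8.13 and 8.47 with FGF9, a difference of -0.72 that missed the threshold (limma adjusted p 0.0508 with the block and 0.631 otherwise). At 24 h Etv4, Ret, Lhx1 and Foxp1 were at 0.43, -1.46, -0.50 and -0.17.

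Forebrain regulators, which mark the region without Hox expression, did not move together. Over 10 measured of 13 the medians were 0.06 and 0.05 at 24 h and 10 days. With the block 1 passed as higher and 1 as lower at 10 days, where 6.43% of all genes passed in either direction. Emx2, a dorsal forebrain factor also made in other tissues, had 5.19 and 7.28 in the 10-day controls and 6.79 and 9.04 with FGF9. It was higher in both pairs, by 1.68 (limma adjusted p 0.0173 with the block and 1.00 otherwise), and higher on AA1 than on CL2. Lhx2 had 7.43 and 10.21 in the controls and 9.05 and 10.72 with FGF9, a difference of 1.07 that missed the threshold (limma adjusted p 0.0702 with the block). Fezf2 was lower by 0.79 and 0.67, a mean of -0.73 (limma adjusted p 0.0380 with the block). The other 7 (Otx1, Six3, Six6, Hesx1, Fezf1, Dmrta2 and Nkx2-1) had 10-day differences between -0.06 and 0.41. The 5 measured midbrain and hindbrain genes had medians of 0.20 and 0.01, and 0 passed in either fit.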

How the data were processed

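Total RNA of rat myelinating cultures was measured on 8 arrays in 4 groups of 2, grouped by title. The deposited values are on a log2 scale, as read from their range. The authors made them with Partek 6.5 and GCRMA (correction for background hybridization and a summary over probes), per the submitters' processing notes. Other steps are not stated in these sources. Arrays give no read depth, so the number of arrays limits precision.

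Of 29214 features, 15310 had 1 symbol in the platform annotation, and the highest-mean feature per gene left 14506 genes. Values were used as deposited. The main model, in limma 3.58.1 under R 4.3.3, had a mean for each group over all 8 arrays (functions lmFit and eBayes, two-sided tests), p-values adjusted by Benjamini-Hochberg over all genes, threshold 0.05. Errors are its SEs except where the block is named. The alternative with the name prefix as a fixed block leaves 2 residual degrees of freedom instead of 4. Same-numbered control and FGF9 arrays, which share a prefix, deviated together from their group means, at r = 0.757 at 24 h and 0.819 at 10 days, and this was taken as pairing within a time. The block lowered the median residual SD from 0.30 to 0.145. The fits were also run on simulated data built from the block effects and spread of the fixed block fit. That run cannot show whether calls made only with the block hold.

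The 22 members and the 17 gene lists (241 entries) were chosen with earlier results of these data known. Values per array are given for the member of highest mean in each paralogue number and for the 5 largest differences of each sign that held in both pairs. Of the cofactor, upstream, Polycomb, trithorax, homeobox and motor neuron lists the 4 genes with the smallest unadjusted p per FGF9 contrast are named, with Meis1, Meis2, Ezh2 and Bmi1. All measured forebrain genes may be named. Otx2 and Nr6a1 are not analysed here. Nefm, Rbfox3 and Gap43 were chosen after their values were seen. Alternatives were the block, fixed or random, leaving out each array, quantile normalization, median subtraction, a filter at the 25th percentile and the mean over features. The replicate number as a block and the block without each pair were added after seeing the data. Promoter sequences are from RefSeq, build GRCr8.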

Additional observations from a re-analysis of the deposited data

Results flagged for a closer look

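For 3 Hox genes both pairs were higher with FGF9 at 24 h and both were lower at 10 days. Of all genes, 31.8% were higher in both pairs at 24 h and 30.0% lower in both at 10 days. The share of all genes with both was not counted, so the 3 are not shown to exceed it. The FGF9 effect at 10 days minus that at 24 h was -0.54 on the log2 scale for Hoxa2, -1.09 for Hoxd9 and -0.11 for Hoxd13. The direct test of this difference was not passed by any of the 3: limma's adjusted p was 1.00 for each without the block, and 0.441, 0.234 and 0.853 with the array name prefix as a block. For Hoxa2 the 10-day difference in pair 1 was -0.0049, and for Hoxd13 every paired difference was within 0.12 of control.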

How the results depend on the processing

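The replicate block changed counts of Hox calls in 2 comparisons. At 10 days of FGF9 the count rose from 0 to 4 with the prefix of the array name as a fixed block. Leaving a pair out of that fit leaves 1 array in a group, so its counts cannot say whether the calls hold. The median Hox difference at 10 days was then -0.29 without AA1 and -0.67 without the 10-day CL2 pair. The count was 0 with the prefix as a random block (smallest Hox adjusted p 0.0878, limma) and 0 with the replicate number as a block over both times (0.190). Of all 14506 genes, 151 and 1 passed in those fits. Replicate 2 minus replicate 1 in the controls correlated between the times at r = 0.0193 over all genes and 0.680 over the 22 Hox genes. For 10 days against 24 h with FGF9 the fixed block gave 6, the random block 0 (0.0660) and the number block 0 (0.128). Of all genes 1589, 209 and 2 passed in these 3 fits. With all 8 arrays in the fit, no block changed another count of Hox calls. Without the block the count was 0 in every contrast under every scaling, filter and left-out array. The median Hox difference at 24 h ran from -0.11 to 0.11 when 1 array was left out, so it has no settled sign, while at 10 days it ran from -0.61 (without control replicate 1) to -0.21 (without control replicate 2, an AA1 array). Only 1 member stayed above the array median on all arrays when the median was taken over genes above the 25th percentile, since that median is higher. At 24 h single-gene signs reversed when 1 array was left out for Hoxb8 (-0.92 to 0.22), Hoxd1 (-0.61 to 0.37), Hoxb9 (-0.73 to 0.62), Hoxc12 (-0.17 to 0.066), Hoxd9 (-0.030 to 0.28), Hoxb4 (-0.046 to 0.24) and Hoxd13 (-0.081 to 0.21). At 10 days the left-out arrays reversed none of the 5 named members, and Hoxa5 ran from -1.42 to -0.65, Hoxd9 from -1.50 to -0.42 and Hoxd10 from -1.22 to -0.50. With 2 arrays a group and dim features for several members, small differences were not detectable.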
